A study of Mus musculus with 10 samples.

Results

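Gene expression was compared between 2 groups of mouse samples, labelled as tumours, that carry the same Kmt2d and Ptch alleles and differ in the Cre driver. The NKP group (3 libraries) has the genotype Nestin-Cre Kmt2dfl/+ Ptch+/-, and the AKP group (3 libraries) has the genotype AtohI-Cre Kmt2dfl/+ Ptch+/-, spelled as in the labels. Both groups therefore have 1 floxed Kmt2d copy and are heterozygous for Ptch, and both are labelled as medulloblastoma, a tumour of the cerebellum. NKP 1, 2 and 3 came from mice of 4 months, AKP 1 and AKP 2 from mice of 2 months and AKP 3 from a mouse of 4 months. In both groups the sex labels are male for libraries 1 and 2 and female for library 3. Another 4 libraries, from cerebellum of Ptch+/- mice of 2 or 4 months with no Cre and no floxed allele named, entered the same fit and are given beside the results. By label, AKP 3 differs from AKP 1 and AKP 2 in age and sex, and NKP 3 from NKP 1 and NKP 2 in sex. The labels do not say whether libraries 1 and 2 of a group are from different mice. Each p-value reflects the spread between libraries, which may in part be technical. The genes compared were those with at least 10 counts in 3 or more of the 6 tumour libraries, which were 15251 of 39769 gene symbols. Of these, 13949 reached 10 counts in all 6 tumour libraries, 8 only in the AKP libraries and 32 only in the NKP libraries.

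Medulloblastoma of the Sonic hedgehog (SHH) type arises from granule neuron precursors, which divide in the outer layer of the young cerebellum before they mature into granule neurons. Ptch1 is the SHH receptor that holds the transducer Smo inactive, and loss of Ptch1 function turns on targets such as Gli1. Atoh1 is the transcription factor that defines granule neuron precursors, whereas Nestin, encoded by Nes, is an intermediate filament of neural stem and progenitor cells throughout the developing nervous system. A Nestin-Cre transgene thus acts in progenitors of many neurons and glia, and an Atoh1-Cre transgene in a narrower set of lineages that includes the granule neuron precursors. Kmt2d is a histone H3 lysine 4 methyltransferase that acts at enhancers within a COMPASS complex, together with Kdm6a, Ncoa6 and Paxip1.

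The genes that the genotypes name did not separate the 2 groups. Kmt2d was at 33.1, 46.8 and 58 CPM (counts per 1000000 on the scaled library size) in NKP 1, 2 and 3 and at 34.2, 41.4 and 43.6 CPM in AKP 1, 2 and 3. The AKP values lay within the NKP range, and the log2 fold change of AKP against NKP was -0.21 with a standard error (SE) of 0.177 (edgeR quasi-likelihood test, Benjamini-Hochberg adjusted p = 0.541). The table gives 1 value for the whole gene, which does not show whether the floxed copy was recombined. Ptch1 differed by -0.49 (SE 0.186) and Nes by 0.31 (SE 0.274), and neither passed the test.

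Markers of dividing granule neuron precursors were near 0 in 3 of the 6 tumour libraries, across the group labels. Mki67, a marker of cycling cells, was at 0.653, 0.718 and 11.8 CPM in NKP 1, 2 and 3 and at 0.575, 49.2 and 38.8 CPM in AKP 1, 2 and 3. Atoh1 was at 0, 0.221 and 3.67 CPM in the NKP libraries and at 0, 5.78 and 5.46 CPM in the AKP libraries. NKP 1, NKP 2 and AKP 1 were thus low for both genes and for Gli1 (10.3, 12 and 10.8 CPM, against 17.3 to 26.2 CPM in the other 3). The 4 Ptch libraries, labelled as cerebellum, had Mki67 at 27.3 to 84.3 CPM and Atoh1 at 5.71 to 16.5 CPM, which is above NKP 1, NKP 2, NKP 3 and AKP 1 for both genes. The tissue labels therefore did not follow the level of these markers, which were near 0 in 3 libraries labelled medulloblastoma and not in the 4 labelled cerebellum. The name tumour library follows the label throughout. Transcripts of 4 Y-linked genes summed to 55.2 to 87 CPM in all 6 tumour libraries, including NKP 3 and AKP 3, whose labels are female. Xist, the RNA that silences an X chromosome, was at 11.9, 74.7 and 0.438 CPM in NKP 1, 2 and 3. In AKP 1, 2 and 3 it was at 15, 0.434 and 5.38 CPM. NKP 2, labelled male, thus held Y-linked transcripts and the highest Xist of the tumour libraries. Why both were present was not tested. Depth was similar, with 12837802 to 18320860 counts per tumour library.

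**Figure D1:**
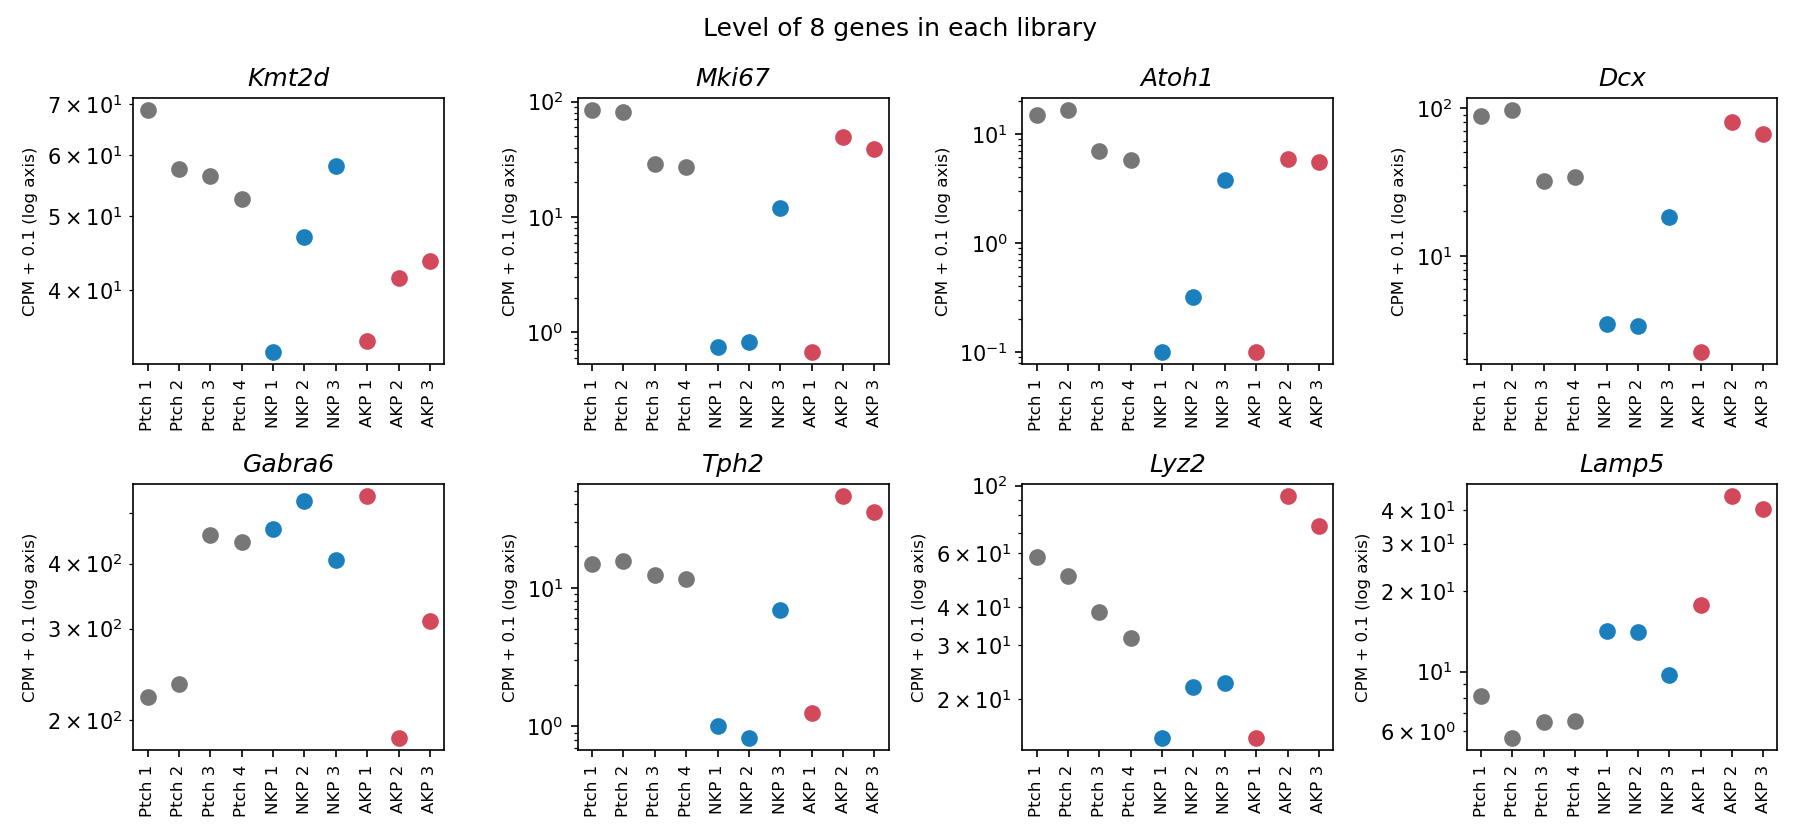
Level of 8 genes in each library, as CPM plus 0.1 on a log axis (grey, Ptch; blue, NKP; red, AKP; 1 point per library). Mki67 and Dcx are near the bottom of their axes in NKP 1, NKP 2 and AKP 1, whereas Lamp5 is above every NKP library in all 3 AKP libraries.

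Across all genes, AKP 1 resembled the NKP libraries more than it resembled the other AKP libraries. The first principal component of the 6 libraries held 54.8% of the variance and placed NKP 1 at -32.1, NKP 2 at -34.3, AKP 1 at -31.2, NKP 3 at 0.228, AKP 3 at 41.1 and AKP 2 at 56.3. Of 11136 genes with a mean of at least 100 counts, 19 (0.171%) differed by 2-fold or more between NKP 1 and AKP 1, the closest pair of all 15. The closest pair within a group was AKP 2 and AKP 3, with 33 such genes (0.296%). AKP 1 differed from AKP 2 in 421 genes (3.78%) and from AKP 3 in 223 (2%). The most distant pair was NKP 2 and AKP 2, with 634 genes (5.69%). AKP 2 had the highest of the 6 values for 27% of these genes and the lowest for 27.7%.

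With edgeR, only 1 gene passed the test between the groups, Nptxr, which was lower in AKP (1 of 15251 genes, 0.00656%), and none was higher at an adjusted p below 0.05. At an unadjusted p below 0.05 there were 2560 genes (16.8%), of which 1335 were higher (8.75%) and 1225 lower in AKP (8.03%). The CPM values of the groups did not overlap for 1030 genes that were higher in AKP (6.75%) and 1434 that were lower (9.4%). Of the genes without overlap, 88 were at least 2-fold higher (0.577%) and 63 at least 2-fold lower (0.413%). The median log2 fold change of all genes was -0.01, and 48.6% were above 0. The count of calls depended on AKP 1: without it, 1327 genes passed, 675 higher and 652 lower. With NKP 1, NKP 2 and AKP 1 all left out, NKP 3 against AKP 2 and AKP 3 gave 4 calls, Hba-a2, Tph2 and Lamp5 as higher and Nptxr as lower. That fit has a single NKP library, which is assumed to vary like the other groups, and NKP 3 had the lowest Hba-a2 of the tumours (135 CPM, against 407 and 190 CPM in NKP 1 and NKP 2). DESeq2 called 234 genes, and the 4-month libraries alone, with a single AKP library, gave 378. Among the tumours only AKP 1 and AKP 2 were from mice of 2 months, and with age as a covariate no gene passed.

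Within the non-overlapping genes, the distance from the NKP libraries was largest in AKP 2 and smallest in AKP 1. Among the 1030 genes higher in AKP, AKP 1 was the AKP library nearest to NKP in 678 (65.8%), and among the 1434 lower genes in 901 (62.8%). For the higher genes, the median departure from the NKP mean was 0.24 log2 units in AKP 1, 0.328 in AKP 3 and 0.493 in AKP 2. The corresponding medians for the lower genes were -0.208, -0.314 and -0.396.

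**Figure D2:**
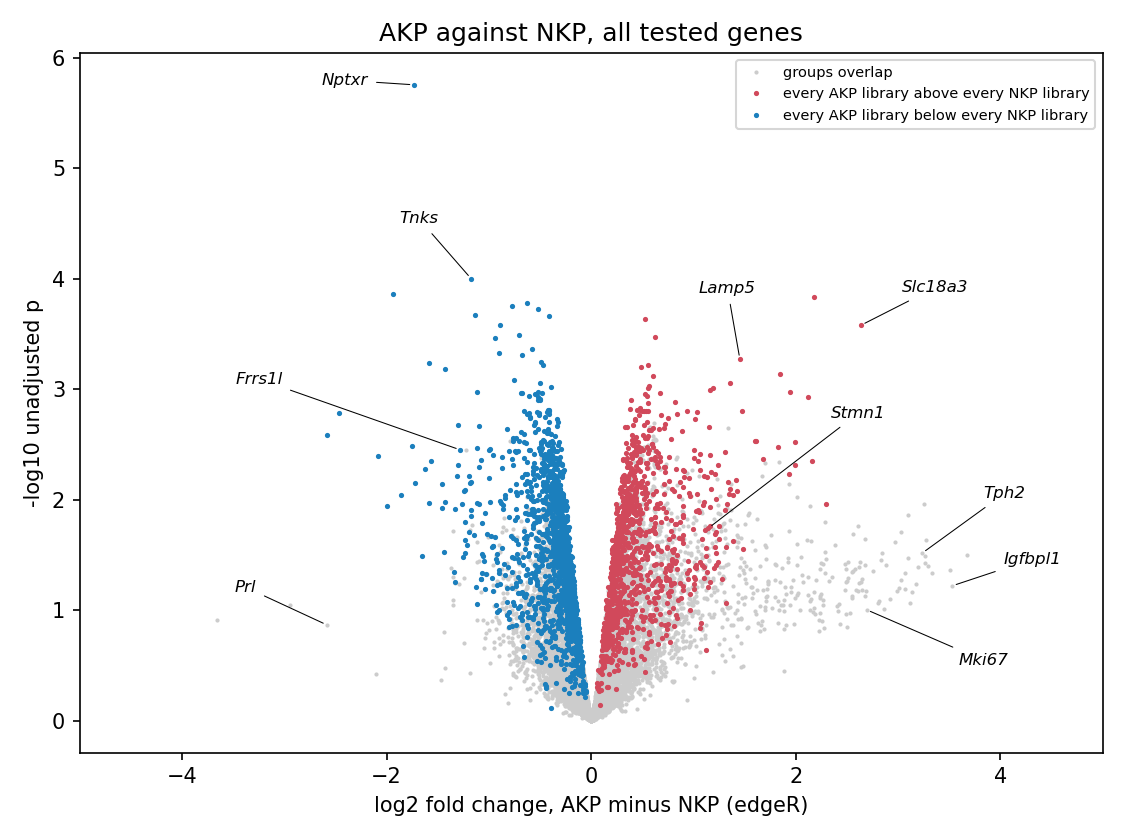
Each point is 1 of the 15251 tested genes, with the log2 fold change of AKP against NKP on the x axis and the negative log10 of the unadjusted edgeR p on the y axis. Nptxr stands above all others; Mki67, Tph2 and Igfbpl1 are far to the right but grey, because their AKP and NKP values overlap.

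Nptxr encodes the neuronal pentraxin receptor, a membrane protein of synapses that binds the secreted pentraxins Nptx1 and Nptx2 and helps to cluster glutamate receptors. It was at 26.6, 35.6 and 33.1 CPM in NKP 1, 2 and 3 and at 12.7, 6.07 and 10 CPM in AKP 1, 2 and 3. The 4 Ptch libraries ranged from 35.9 to 41.2 CPM, so all 3 AKP libraries were lower than the other 7, AKP 1 included. Group means were 31.8 ± 4.64 CPM in NKP (SD, n = 3) and 9.61 ± 3.34 CPM in AKP (SD, n = 3). The log2 fold change was -1.73 (SE 0.207, edgeR adjusted p = 0.0268), and the second smallest adjusted p of any gene was 0.2277. The call was lost when only the 6 tumour libraries were fitted (adjusted p = 0.336), with age (0.107) or sex label (0.0944) as a covariate, and without NKP 1, NKP 2, NKP 3, AKP 3 or any 1 Ptch library (0.0676 to 0.391). It was also lost without the 4 libraries whose Y-linked transcripts go against the sex label, Ptch 1, Ptch 3, NKP 3 and AKP 3 (0.862).

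The Nptxr value also depends on how reads were divided with a neighbouring gene. Nptxr lies on the minus strand of chromosome 15 from 79786351 to 79804709 (GRCm38), and Npcd, annotated on the same strand, splices from exons farther upstream into Nptxr exons 2 to 5, exon 5 in part. In the GENCODE vM21 models, 890 of the 5006 bases of transcript Nptxr-201 (17.8%) lie in exons of Npcd, so reads there fit both genes. The junctions into the first shared exon, exon 2 at chr15:79794256-79794475, show which bases do tell them apart. In the 2 sequences below, read 5′ to 3′ on the minus strand from the GENCODE vM21 transcripts (GRCm38), the lower-case bases are the 30 before the junction and the capitals are the first 30 of the shared exon.
Nptxr-201: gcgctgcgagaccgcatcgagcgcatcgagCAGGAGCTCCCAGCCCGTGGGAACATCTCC
Npcd-201: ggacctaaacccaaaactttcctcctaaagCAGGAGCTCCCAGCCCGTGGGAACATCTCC
The capitals are the same in both transcripts and the lower-case bases are not. Npcd was at 213, 174 and 187 CPM in NKP 1, 2 and 3 and at 211, 187 and 194 CPM in AKP 1, 2 and 3, with overlapping groups and a log2 fold change of 0.04 (SE 0.131). Nptxr and Npcd summed to 239, 210 and 220 CPM in the NKP libraries and to 224, 193 and 204 CPM in the AKP libraries, and this sum did not pass (log2 fold change -0.11, adjusted p = 0.642). Nptxr made up 14.4% ± 2.99 of the sum in NKP (SD, n = 3), 4.59% ± 1.31 in AKP (SD, n = 3) and 15.9% ± 2.91 in Ptch (SD, n = 4). Because most of the sum is Npcd, the sum cannot decide whether Nptxr itself changed. The annotated span of Npcd also covers Cbx6 (chr15:79823898-79834333), which was at 375 to 448 CPM across the libraries. How reads were divided between Npcd and Cbx6 was not tested. Which of the shared reads belong to each gene was not tested.

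**Figure D3:**
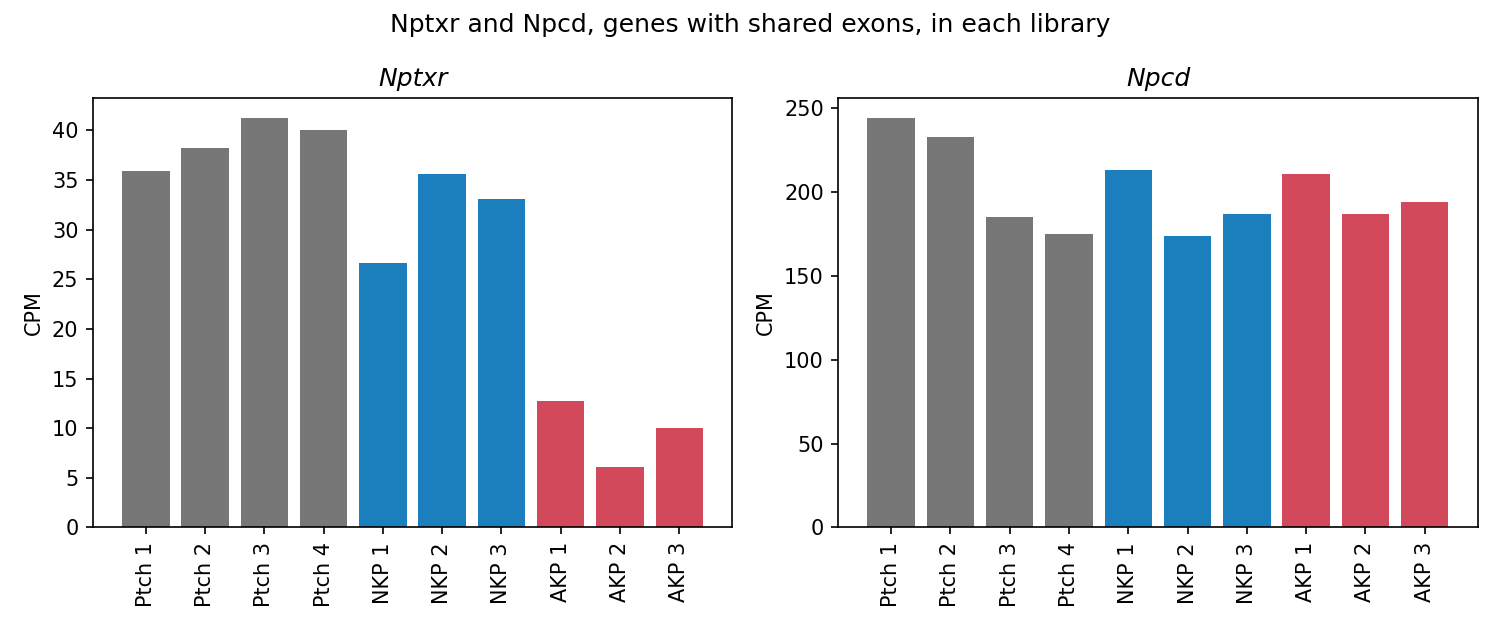
Level of Nptxr (left) and Npcd (right) in each library, in CPM from 0 (grey, Ptch; blue, NKP; red, AKP). Nptxr is at 6.07 to 12.7 CPM in the AKP libraries and at 26.6 to 41.2 CPM in the others, while Npcd is at 174 to 244 CPM throughout.

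The ligands of this receptor family did not show the same separation. Nptx1, a secreted neuronal pentraxin, was at 464, 442 and 433 CPM in the NKP libraries, at 440 CPM in AKP 1 and at 254 and 305 CPM in AKP 2 and AKP 3 (log2 fold change -0.42, SE 0.155, not passed). AKP 1 lay inside the NKP range and the other AKP libraries were below it. Nptx2, an activity-induced pentraxin, was at 1.48 to 2.71 CPM in NKP and 1.89 to 3.9 CPM in AKP.

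Beyond Nptxr, 4 genes with a mean of at least 100 counts and an accepted symbol were at least 2-fold lower in AKP with no overlap, and none of the 4 passed (adjusted p = 0.228 for each in edgeR). Tnks encodes tankyrase, a poly-ADP-ribose polymerase that acts on axin and on telomeres, and was at 10.6, 14.3 and 13.7 CPM in NKP and 6.57, 4.99 and 5.6 CPM in AKP (log2 fold change -1.17, SE 0.214). Frrs1l encodes a protein needed for the assembly of AMPA-type glutamate receptors, and was at 41.7, 54.4 and 40.6 CPM in NKP and 26.8, 11.4 and 18.4 CPM in AKP (-1.28, SE 0.329). In both genes AKP 1 was the highest of the 3 AKP libraries and still below every NKP library. The longest annotated transcripts of Tnks, Megf9 and Frrs1l have 9163, 7924 and 6817 bases, and that of Mfrp has 4316. The first 3 are in the longest of 5 length classes, in which 632 genes were lower and 36 higher without overlap, as described below. Megf9, a transmembrane protein with EGF-like domains, differed by -1.11 (SE 0.309). Mfrp, a membrane frizzled-related protein whose gene overlaps C1qtnf5, differed by -1.19 (SE 0.36), and reads in the overlap cannot be assigned to either gene. Ago2, the endonuclease of the RNA-induced silencing complex, was chosen after its values were seen: it was at 9.06, 9.5 and 6.95 CPM in NKP and 3.86, 2.96 and 4.79 CPM in AKP (-1.13, SE 0.224, not passed).

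In the other direction, 13 genes met the same size and overlap conditions, and none passed. The 10 with the smallest unadjusted p are described here. Lamp5, a membrane protein of a subset of inhibitory neurons, was at 14, 13.9 and 9.63 CPM in NKP 1, 2 and 3 and at 17.6, 44.9 and 40.2 CPM in AKP 1, 2 and 3 (log2 fold change 1.45, SE 0.301, edgeR adjusted p = 0.228). The 4 Ptch libraries held 5.54 to 8.02 CPM, below all 6 tumour libraries. Lamp5 passed in 3 of 26 alternatives, among them the fit without AKP 1 and the fit without NKP 1, NKP 2 and AKP 1. Stmn1, a microtubule-destabilising protein of dividing and young neurons, was at 372, 320 and 370 CPM in NKP and 387, 1116 and 848 CPM in AKP (1.15, SE 0.392). AKP 1 exceeded the highest NKP library by little, and AKP 2 and AKP 3 were far above.

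That pattern, a small excess in AKP 1 and a large one in AKP 2 and AKP 3, recurred in the rest of the 10. Serpina3n, a serine protease inhibitor of reactive glia, was at 3.67 to 4.97 CPM in NKP and at 5.83, 14.1 and 11.3 CPM in AKP. Sncg (gamma-synuclein) was at 11.1 to 12 CPM in NKP and at 13.1, 31.3 and 25.7 CPM in AKP. Fcer1g, a signalling chain of immune receptors, was at 4.49 to 5.69 CPM in NKP and at 6.07, 13.9 and 10.8 CPM in AKP. Rfc4 (a subunit of the clamp loader of DNA replication), Snrpg (a core protein of spliceosomal particles), Dctpp1 (a nucleotide pyrophosphatase), Csrp2 (a LIM-domain protein) and Tmem176a (an immune-cell membrane protein) had log2 fold changes of 1.14, 1.16, 1.05, 1.07 and 1.16. Rfc4 overlaps Eif4a2 and Tmem176a overlaps Tmem176b, so their values are uncertain. Each of these 10 genes was thus highest in AKP 2 and AKP 3, the 2 tumour libraries with the highest Mki67, and the part of dividing cells in their differences was not tested. The longest annotated transcripts of these 10 genes have 676 to 2268 bases, against a median of 3391 for all tested genes. Short transcripts were more often higher in AKP, as described below.

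Mitosis genes had the largest median difference of the 33 lists, and no member of any list passed the test between the groups. All 31 mitosis genes had higher means in AKP, with a median log2 fold change of 2.27 beside -0.01 for all genes. Their summed level was 195.5, 186.2 and 271.6 CPM in NKP 1, 2 and 3, and 190, 689.5 and 573.2 CPM in AKP 1, 2 and 3. AKP 1 was thus inside the NKP range, and no mitosis gene had groups without overlap. At an unadjusted p below 0.05, 6 of 31 were higher in AKP and 0 lower, beside 8.75% and 8.03% of all genes. Cenpa, the histone H3 variant of centromeres, had the smallest p of the list, at 1.55, 0.607 and 3.17 CPM in NKP and 1.64, 25.4 and 17 CPM in AKP (3.03, SE 1.03). The 31 DNA replication genes were also all above 0, with a median of 0.80 and 4 without overlap (Gins4, Pcna, Rfc4 and Fen1), beside 6.75% of all genes higher without overlap. With NKP 1, NKP 2 and AKP 1 left out, the medians were 1.84 for mitosis and 0.706 for DNA replication. Those libraries were left out for Mki67 under 1 CPM, and Mki67 is a member of the mitosis list. That choice thus used values of the list itself, and NKP 3 alone stands for NKP, so these medians are descriptive only. The mitosis median was 3.64 without NKP 3.

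**Figure D4:**
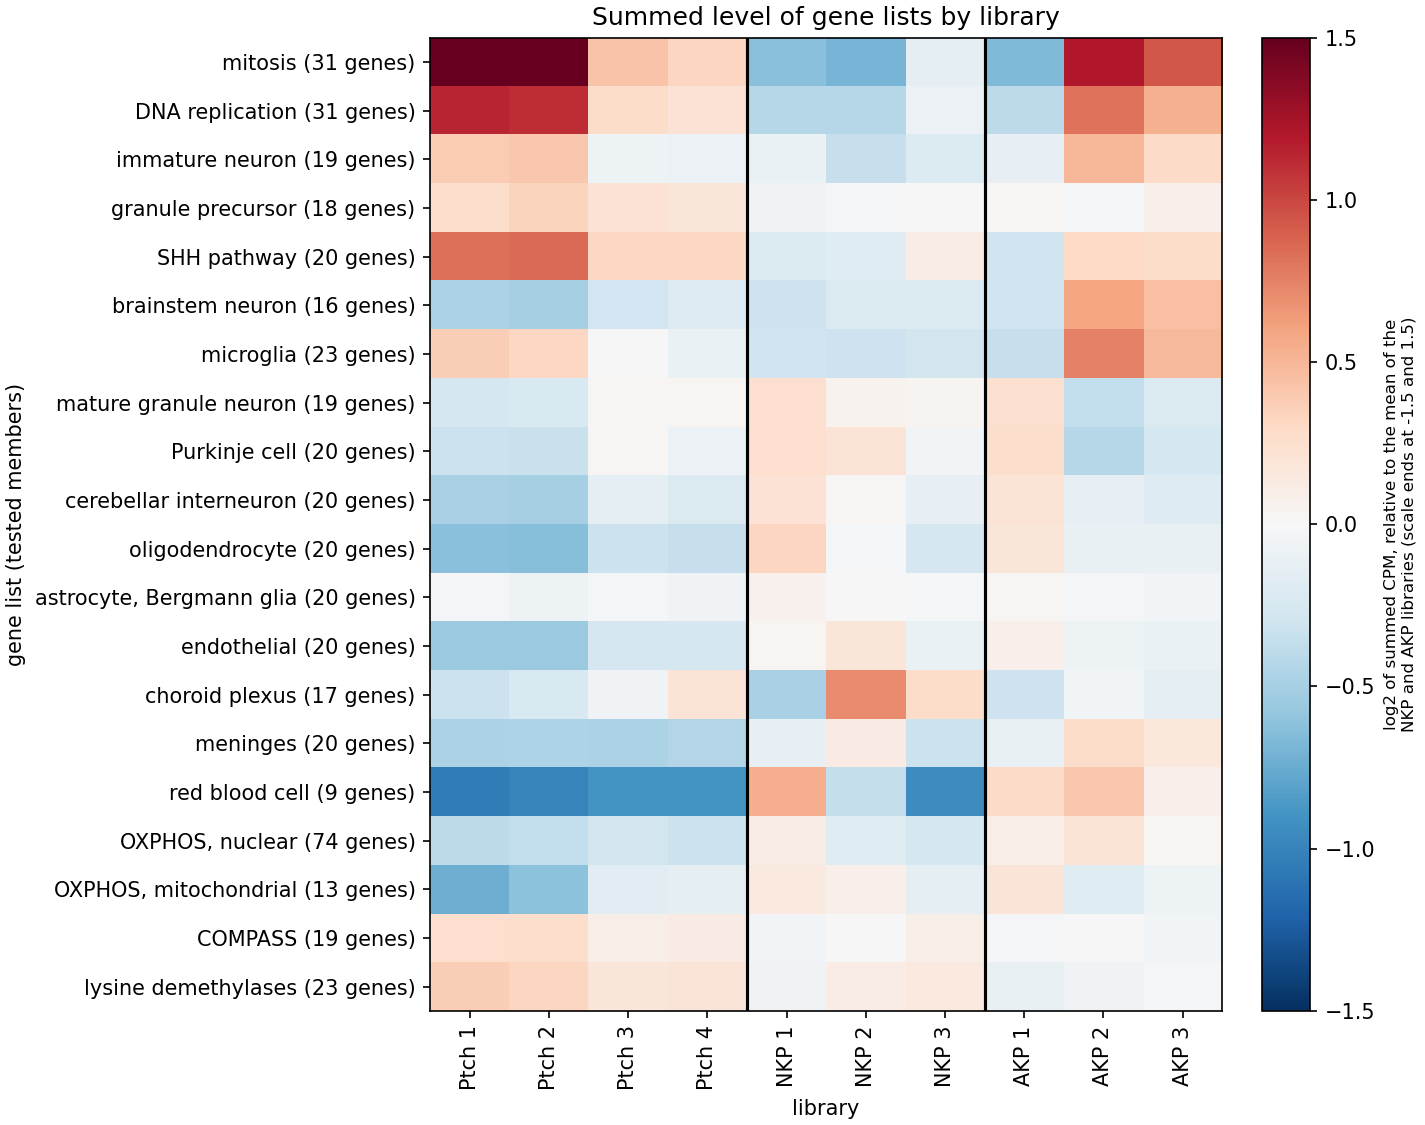
Summed CPM of the tested members of 20 gene lists in each library, as log2 relative to the mean of the 6 tumour libraries (red, above; blue, below; the colour scale ends at -1.5 and 1.5, and the mitosis sums of Ptch 1 and Ptch 2 lie beyond it). AKP 1 has the colours of NKP 1 in most lists, and AKP 2 and AKP 3 share theirs.

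Young neuron genes followed the dividing cells. Of 19 genes of migrating immature neurons, 16 were above 0 with a median of 0.52 (0.343 without AKP 2). Igfbpl1, a secreted protein of young granule neurons, was at 1.39, 0.883 and 20.1 CPM in NKP and 1.72, 153 and 113 CPM in AKP (3.53, SE 1.59). Dcx (doublecortin, a microtubule protein of migrating neurons) was at 3.35, 3.26 and 18.3 CPM in NKP and 2.13, 80.1 and 66.5 CPM in AKP (2.55, SE 1.22). NKP 3 was between the 3 low and the 2 high libraries for both genes. Unc5c, a netrin receptor, went the other way, at 36.7 to 42.6 CPM in NKP and 21.5 to 30 CPM in AKP (-0.58, SE 0.124, no overlap). In the granule precursor list 11 of 18 tested genes were above 0 and the median was 0.17 (0.0748 without AKP 2). Insm1, a zinc-finger factor of neuronal progenitors, was at 0.571, 0.662 and 15.6 CPM in NKP and 0.657, 70.1 and 56.9 CPM in AKP, and Barhl1, a homeobox factor of the granule lineage, differed by 1.72 (SE 0.826). Its paralogue Barhl2 was lower, by -0.36 (SE 0.137), and so were the Zic1, Zic2 and Zic5 means.

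SHH pathway genes gave mixed differences. Of the 20 listed genes 13 were above 0, and the median was 0.17 (0.109 without AKP 2). Among targets and effectors, Gli1 differed by 0.63 (SE 0.408), Mycn, a driver of precursor division, by 1.79 (SE 0.868) and Sfrp1, a secreted Wnt antagonist used as a marker of SHH tumours, by 1.83 (SE 0.971). Sfrp1 was at 6.61, 8.94 and 31.9 CPM in NKP and 8.13, 92 and 71.4 CPM in AKP, while the Ptch libraries held 58.1 to 151 CPM. Ptch1, itself a receptor and a target, was instead at 85.5, 100 and 110 CPM in NKP and 90.6, 55.6 and 65.5 CPM in AKP. Ptch1 was thus lowest in the 2 AKP libraries with the highest Gli1. Of the 20 genes, 2 had groups without overlap, the ligand Shh and the co-receptor Boc, lower in AKP by -0.55 and -0.18. That is near the share of all genes that were lower without overlap (9.4%).

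Genes of serotonergic and other brainstem neurons were higher in AKP 2 and AKP 3. Of 36 listed genes 16 had enough counts, 15 of those were above 0, and the median was 0.96 (0.582 without AKP 2). Tph2, the enzyme that starts serotonin synthesis in neurons, was at 0.898, 0.718 and 6.78 CPM in NKP, 1.15, 45.6 and 35.2 CPM in AKP and 11.5 to 15.5 CPM in Ptch (3.24, SE 1.21). The serotonin transporter Slc6a4 was at 0.166 to 5.03 CPM in NKP and 0.164, 26 and 22.1 CPM in AKP. Tph2, Slc6a4, the monoamine transporter Slc18a2 and the decarboxylase Ddc summed to 10, 9.99 and 28.3 CPM in NKP, 9.03, 126 and 96.1 CPM in AKP and 40.3 to 42.3 CPM in Ptch. AKP 2 and AKP 3 were thus above all 8 other libraries for this sum, and AKP 1 was below all of them.

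Slc18a3 and Slc17a6, which load other transmitters into vesicles, were also highest in AKP 2 and AKP 3. Slc18a3, the vesicular acetylcholine transporter, had the smallest p of the brainstem list, at 0.571, 0.497 and 0.492 CPM in NKP and 0.903, 4.63 and 4.2 CPM in AKP (2.64, SE 0.536, edgeR adjusted p = 0.228). Its counts are few, with a mean of 26.2 over the 6 libraries. Slc18a3 also overlaps Chat on the same strand, so its values are uncertain. Slc17a6, the vesicular glutamate transporter of many brainstem neurons, was at 31.3 to 41.1 CPM in NKP and 26.8, 75.6 and 67.6 CPM in AKP. Of the 14 Hox genes listed, which mark hindbrain and spinal cord, only Hoxb5 had enough counts, and Hoxb6, Hoxb7 and Hoxb8 had 0 counts in all 6 libraries. The noradrenergic genes Dbh and Slc6a2 ordered the libraries differently, since NKP 3 was high: Dbh was at 1.8, 2.21 and 9.85 CPM in NKP and 2.38, 7.88 and 6.78 CPM in AKP. The part of brainstem tissue in these differences was not tested.

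Summed markers of mature granule neurons, Purkinje cells and interneurons were lower in AKP 2 and AKP 3 than in every NKP library, AKP 1 was not, and no member passed. For mature granule neurons 18 of 19 genes were below 0 with a median of -0.22, and for Purkinje cells 18 of 20 with a median of -0.35. Without AKP 2 these medians were -0.0685 and -0.2, and without AKP 1 they were -0.477 and -0.589. The Purkinje sum was 12370, 12030 and 10130 CPM in NKP and 12510, 7739 and 8681 CPM in AKP, so AKP 1 was the highest of the 6 libraries. Gabra6, a receptor subunit of mature granule neurons, was at 466, 529 and 406 CPM in NKP and 538, 185 and 310 CPM in AKP, so AKP 1 was above all NKP libraries. Itpr1, the calcium release channel abundant in Purkinje cells, was at 1268, 1585 and 1453 CPM in NKP and 1192, 734 and 858 CPM in AKP (-0.63, SE 0.194, no overlap). Among interneuron genes 14 of 20 were below 0. Kit, a receptor of molecular layer interneurons, differed by -0.68 (SE 0.235), whereas Sst, a neuropeptide, was at 49.9 and 36.5 CPM in AKP 2 and AKP 3 against 11.6 to 24.9 CPM in the other 4. Since these are bulk samples, fewer cells of a type and less RNA per cell cannot be told apart.

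Microglial genes were higher in AKP 2 and AKP 3, and other glial lists differed little. Of 23 microglia genes 19 were above 0, with a median of 0.46. At an unadjusted p below 0.05, 10 were higher, beside 8.75% of all genes. Their sum was 395.8, 391.7 and 403.6 CPM in NKP, which is a narrow range, and 384.7, 821.5 and 680.8 CPM in AKP. Lyz2, a lysozyme of macrophages and microglia, was at 14.9, 21.8 and 22.4 CPM in NKP and 14.8, 92.1 and 73.7 CPM in AKP (1.61, SE 0.595). C1qb, a complement component made by microglia, differed by 0.99 (SE 0.334). The resident markers P2ry12, Siglech and Sall1 differed by -0.12, 0.04 and 0.03. Oligodendrocyte genes had a median of -0.03 (0.174 without NKP 1) and astrocyte genes of -0.10, with Nkx6-2 (0.56), Olig1 (0.27) and Itih3 (0.45) as the members with the smallest p in the oligodendrocyte, precursor and astrocyte lists.

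Choroid plexus, blood and pituitary transcripts varied between libraries of the same group. Of 17 choroid plexus genes 16 were below 0 with a median of -0.60 (-0.324 without NKP 2), and their sum was 1887, 4353 and 3211 CPM in NKP and 2132, 2570 and 2419 CPM in AKP. NKP 2 was the highest library and NKP 1 the lowest, so the AKP libraries lay inside the NKP range. Kl, an anti-ageing membrane protein abundant in choroid plexus, was at 20, 62.3 and 46.3 CPM in NKP and 21.3 to 26.2 CPM in AKP. The 4 haemoglobin genes, which have near-identical copies and are therefore uncertain one by one, summed to 2460, 1230 and 772 CPM in NKP, 2020, 2220 and 1730 CPM in AKP and 705 to 808 CPM in Ptch. Prl, the pituitary hormone prolactin, was at 4.16, 39.6 and 0.602 CPM in NKP and 6.32, 0.145 and 1.11 CPM in AKP, highest in NKP 2. Of the lymphocyte and neutrophil list 4 of 19 genes had enough counts.

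The H3K4 methylation machinery around Kmt2d showed small and mixed differences. Of 19 COMPASS genes 5 were above 0 and 14 below, with a median of -0.11, and the summed level was 1182 ± 53.9 CPM in NKP (SD, n = 3) and 1144 ± 19.1 CPM in AKP (SD, n = 3). The enzymes Kmt2a, Kmt2b, Kmt2c, Setd1a and Setd1b differed by -0.28, -0.04, -0.21, -0.15 and -0.16, each below 0 as Kmt2d was. Transcripts of this list are long (median 5850 bases), and its median was 0.0262 after the length and GC correction described below. The core subunits were mixed: Dpy30, Ash2l and Wdr5 differed by 0.47 (SE 0.138), 0.40 (SE 0.153) and 0.21 without overlap, which 6.75% of all genes did in this direction, and Rbbp5 differed by -0.18. Kdm6a, the H3K27 demethylase of the Kmt2d complex, was at 17.1, 26.3 and 16 CPM in NKP and 16.8, 9.91 and 12.2 CPM in AKP (-0.61, SE 0.236, not passed). Kdm6a is X-linked, and its highest tumour library, NKP 2, also had the highest Xist of the tumours (74.7 CPM). Ptch 1 and Ptch 2, with Xist at 252 and 299 CPM, had Kdm6a at 23.1 and 26.5 CPM. The part of X-chromosome content in the Kdm6a difference was not tested. Of 23 lysine demethylase genes 19 were below 0, with a median of -0.16. Jmjd1c, a demethylase-family protein, had the smallest p, at 66.7, 77.7 and 72.3 CPM in NKP and 58.9, 44.1 and 51.8 CPM in AKP (-0.49, SE 0.108). Tet2, which oxidises 5-methylcytosine, differed by -0.66 (SE 0.165) without overlap. The longest annotated transcripts of Jmjd1c and Tet2 have 8609 and 9179 bases, and long transcripts were more often lower in AKP, as described below.

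Nuclear genes of oxidative phosphorylation were higher in AKP by small amounts, while the mitochondrial genome's own genes were not. Of 74 nuclear genes 71 were above 0, with a median of 0.27. At an unadjusted p below 0.05, 40 were higher, beside 8.75% of all genes. Without overlap, 9 were higher and 1 (Ndufs1) was lower, beside 6.75% and 9.4% of all genes. Their sum was 24840, 20170 and 19070 CPM in NKP and 24650, 26540 and 23340 CPM in AKP, so NKP 1 lay inside the AKP range. Atp5e, the epsilon subunit of ATP synthase, had the smallest p, with 278, 216 and 196 CPM in NKP and 272, 396 and 317 CPM in AKP (0.51, SE 0.144). Of the 13 mitochondrially encoded genes 5 were above 0 and 8 below; mt-Nd4l, a complex I subunit, was the most different, by -0.74 (SE 0.194, no overlap). The nuclear genes are short, with a median longest transcript of 1093.5 bases against 3391 bases for all tested genes. After a correction for transcript length and GC content, chosen after the data were seen, their median was 0.0133 and that of the COMPASS genes 0.0262.

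The other lists lay close to the background, with at least 1 member apart in most. Presynaptic genes had 16 of 24 below 0 with a median of -0.11, and Rims1, a scaffold of the release site, was at 115, 116 and 129 CPM in NKP and 106, 83.6 and 88.3 CPM in AKP (-0.38, SE 0.121, no overlap). Ribosome biogenesis genes had 21 of 25 above 0 with a median of 0.14, and Polr1c, a subunit shared by RNA polymerases I and III, differed by 0.39 (SE 0.133). Neural stem and Notch genes had a median of 0.06, and Hey1, a Notch target, was at 51.5, 52.4 and 54.6 CPM in NKP and 53.1, 79.2 and 70.6 CPM in AKP (0.36, SE 0.157). Vessel genes had 13 of 20 below 0 in the endothelial list (median -0.15) and 8 of 14 in the pericyte and smooth muscle list (median -0.07). Tek, the endothelial angiopoietin receptor, was at 10.7, 15.2 and 12.5 CPM in NKP and 9.69, 7.01 and 6.41 CPM in AKP (-0.74, SE 0.21), below every NKP library in all 3 AKP libraries. Interferon and antigen presentation genes had a median of 0.14, with Isg15, an interferon-induced ubiquitin-like protein, at 2.95 to 3.86 CPM in NKP and 4.43 to 6.15 CPM in AKP (0.70, SE 0.241). Cholesterol synthesis genes had a median of 0.09, glycolysis genes of 0.02, hypoxia genes of 0.03 and immediate early genes of -0.03. Within glycolysis the hexokinases went opposite ways without overlap, Hk1 by -0.31 (SE 0.111) and Hk2 by 0.59. Vegfa, the vessel growth factor of the hypoxia list, was at 53.8, 59.1 and 56.8 CPM in NKP and 54.2, 36.9 and 37.6 CPM in AKP, so AKP 1 again lay with the NKP libraries.

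Transcript length moved with the difference across all genes. The log2 fold change had a Spearman correlation of -0.405 with the length of the longest annotated transcript and of 0.108 with its GC content, over 14637 genes, which share libraries and are not independent replicates. Genes were divided into 5 equal classes by length. In the shortest class (102 to 1946 bases) the median log2 fold change was 0.197, with 458 genes higher and 40 lower without overlap. In the longest class (5283 bases and more) the median was -0.156, with 36 genes higher and 632 lower without overlap. The non-overlapping genes had a median length of 2101 bases when higher in AKP and 5058 bases when lower. By library, the median deviation of the shortest class from the mean of the tumour libraries was 0.0456, -0.171 and -0.171 log2 units in NKP 1, 2 and 3, and 0.0514, 0.201 and 0.0661 in AKP 1, 2 and 3. NKP 1 was therefore on the side of the AKP libraries, and NKP 2 and NKP 3 were on the side of the 4 Ptch libraries (-0.103 to -0.196). The mitosis list kept its median under the length and GC correction (2.3), as did the brainstem (0.836) and microglia (0.387) lists in sign. The median after this correction was -0.0257 for the lysine demethylases, -0.0427 for presynaptic genes, 0.0202 for interferon and antigen presentation genes, -0.0549 for astrocyte genes and 0.266 for SHH pathway genes. The median changed sign for COMPASS (0.0262), Polycomb and DNA methylation (0.0795), glycolysis (-0.0415) and immediate early genes (0.00535). It also did so for the 4 tested lymphocyte and neutrophil genes, from 0.20 to -0.112.

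**Figure D5:**
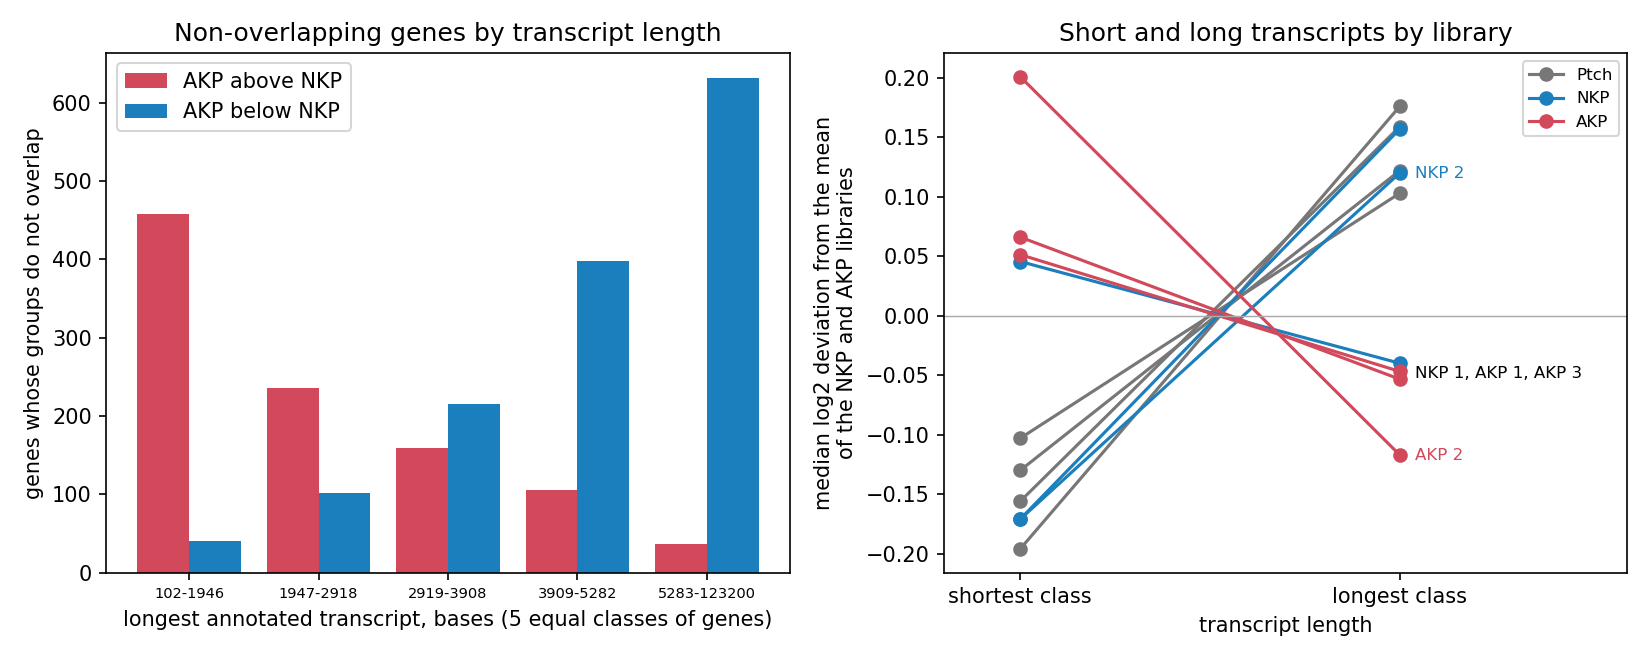
Left, number of genes whose AKP and NKP values do not overlap, in 5 equal classes of transcript length in bases (red, AKP above NKP; blue, AKP below NKP). Right, median log2 deviation of the shortest and the longest class from the mean of the tumour libraries, 1 line per library; AKP 1, AKP 3 and NKP 1 run together, and NKP 2 and NKP 3 run with the Ptch libraries.

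Single libraries also stood apart from the other 5 tumour libraries in some genes, of which several were at similar levels in Ptch libraries. NKP 2 stood farthest above the other 5 tumour libraries in Prl, in Xist (74.7 CPM, others up to 15 CPM), the RNA that silences an X chromosome, and in Rpl34-ps1, a ribosomal pseudogene whose reads are shared with its parent. NKP 3 had the highest Hrk (26.8 CPM against 7.55 to 12.7 CPM), a pro-apoptotic gene of the Bcl2 family, and Nr4a2 (20.4 CPM against 6.57 to 10.4 CPM), a nuclear receptor. The Ptch libraries held Hrk at 18.1 to 22.5 CPM, and Ptch 3 and Ptch 4 had Nr4a2 at 19.4 and 19.9 CPM. NKP 1 had the highest Alas2, the first enzyme of haem synthesis in red cells, at 19.3 CPM against 7.66 to 13.4 CPM. AKP 2 had almost no Eps8l1 (0.145 CPM against 4.57 to 15.1 CPM), an adaptor related to the actin regulator Eps8, and the lowest mt-Atp8 (24.2 CPM against 91.3 to 294 CPM), a mitochondrial ATP synthase subunit. Ptch 1 and Ptch 2 were also low, with Eps8l1 at 0.771 and 0.725 CPM and mt-Atp8 at 34.7 and 30.3 CPM. Because mt-Atp8 overlaps mt-Atp6 on the same strand, its values are uncertain. AKP 3 had the lowest Rtl1 (18.7 CPM against 28.8 to 42.6 CPM), an imprinted gene derived from a retrotransposon, and the highest Chrna4, a nicotinic receptor subunit, at 12.6 CPM against 5.74 to 9.25 CPM. AKP 1 stood farthest below the others in Top2a, a DNA topoisomerase of dividing cells (0.328 CPM against 0.994 to 49.7 CPM), in Pcdhga10, a clustered protocadherin (7.31 CPM against 14.8 to 33 CPM), and in Tyms, an enzyme of thymidylate synthesis (1.64 CPM against 3.26 to 15.9 CPM).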

How the data were processed

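Per the labels' protocols, libraries were made from poly-A RNA with a TruSeq kit; it keeps no strand information. Per the submitters' processing notes, the authors used Trim Galore, STAR and RSEM on GRCm38; no versions are given there. The deposited values are expected counts per gene symbol, already whole numbers, so rounding changed none. Counts of genes with near copies or overlaps are estimates. RefSeq (GRCm38.p6) gave coordinates for 39754 symbols, and GENCODE vM21 gave transcript lengths, GC and exons.

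Genes with at least 10 counts in 3 tumour libraries were tested with edgeR 4.0.16 (R 4.3.3; TMM scaling, robust quasi-likelihood F test, all 10 libraries in 1 fit of 3 groups, contrast AKP minus NKP, Benjamini-Hochberg threshold 0.05). SE is the size of the log2 fold change divided by the square root of F. CPM is on the TMM scale. Principal components and gaps between libraries used log2 CPM with a prior count of 1. Alternatives used DESeq2 1.42.0, limma 3.58.1 (voom with quality weights), other scalings, filters, covariates and left-out libraries. On simulated counts of 15251 genes for this comparison, 59 of 100 genes changed 2-fold and 94 of 100 changed 4-fold were called, with 11 false calls.

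The genes named were the genotype, Cre-driver and marker genes (Kmt2d, Ptch1, Nes, Atoh1, Gli1, Mki67), up to 10 genes per direction with a mean of at least 100 counts, no overlap and at least 2-fold change, the members of each list with the smallest p, the highest level or the opposite direction, and the 3 genes farthest above and below in each library. Members and lists were chosen with earlier results of these data known. Pentraxin, serotonergic and haemoglobin genes, Prl and other list members named for illustration were chosen after their values were seen.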

Additional observations from a re-analysis of the deposited data

How the results depend on the processing

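Of 26 alternatives, 22 were planned and 4 were chosen after seeing the data. The count of genes that passed (1, with 0 higher and 1 lower in AKP) was 234 with DESeq2 (139 higher, 95 lower; 7983 genes had no adjusted p), 378 with only the 4-month libraries (292 higher, 86 lower), and 4 (3 higher) without NKP 1, NKP 2 and AKP 1. In the last 2 fits an arm has 1 library, which is assumed to vary like the other groups. It was 0 when only the tumour libraries were fitted, with age or sex label as a covariate, without the 4 libraries whose Y-linked transcripts go against the sex label, and with Nptxr and Npcd summed; unadjusted calls in these fits were 2081, 3555, 2290, 406 and 2560. Leaving out 1 library at a time gave 0 to 1327 calls (0 to 675 higher, 0 to 652 lower). RLE and upper quartile scaling, voom, both other filters and the length and GC correction gave 1, which was Nptxr. The cause of the other differences was not tested.

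Whether the shared replicate numbers pair the libraries is not settled by these data. Deviations from the group means correlated at 0.235, -0.242 and 0.344 for numbers 1, 2 and 3. With 3 libraries per group the deviations within a group depend on each other, so these correlations cannot exclude a pairing. With the replicate number as a block the count was 0, in the tumour libraries alone and in all libraries, with 1978 and 2092 unadjusted calls. Log2 fold changes changed sign, without passing, for Kmt2d (0.10 after the length and GC correction) and Npcd (-0.021 to 0.126 with 1 library left out, -0.12 after the correction). Depth limits genes of a few CPM: Nptxr at 6.07 CPM in AKP 2 rests on 84 counts.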
